A study of Homo sapiens with 8 samples.

Results

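Genes that act in G2 phase and mitosis were followed in human stem cell-derived cultures given bleomycin, a drug that cuts DNA. The group held 54 genes chosen by symbol from a fixed list, out of 46427 symbols in the count table: cyclins, kinases and phosphatases of mitotic entry, and genes of the kinetochore, spindle checkpoint, chromosomal passenger complex, condensin, spindle and cytokinesis. Kinesin motor genes were kept out of the list, with the exception of CENPE, whose product is itself a kinesin motor that works at kinetochores. All 54 genes passed the filter on low counts, with between 87 counts (SPC25) and 18670 counts (TOP2A) in a library. The cells came from H7, a human embryonic stem cell line of wild type genotype, and were differentiated toward type 2 alveolar cells, which make surfactant in the lung. After 21 days in stages from endoderm to lung progenitor they were kept on inserts, submerged for 3 days and then at an air-liquid interface for 7 days. The groups were control cells, called untreated here, and cells with 24, 240 or 480 µg/ml bleomycin, of which 500 µl stayed on the apical side for 24 hours, with 2 libraries in each group. The labels do not say whether control cells received the solvent, and they name a bleomycin stock of 10 µg/ml, a value below all 3 doses. Nor do they say whether the 2 libraries of a group came from separate cultures, so p-values measure only how these libraries vary, and that variation may be technical.

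A cell that has copied its DNA enters mitosis when cyclin B and its kinase CDK1 become active. Chromosomes are then condensed, attached through kinetochores to the spindle and held by a checkpoint until all are attached, after which the anaphase-promoting complex marks securin and cyclin B for destruction and the cell divides. Most of these genes are expressed in a narrow window of the cycle, and their promoters are known for a pair of short sequences: the cell cycle genes homology region (CHR), bound by the DREAM and MuvB complexes, and the CCAAT box, bound by NF-Y. After DNA damage p53 raises p21, the product of CDKN1A, and in cells held back by it the DREAM complex is known to silence such promoters. Their RNA is commonly read as a sign of how many cells of a culture are cycling. In RNA from whole cultures, fewer dividing cells and less RNA of these genes per cell cannot be told apart.

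Total counts per library ran from 53431773 to 67715984, and 18303 genes were tested. The words called, rose and fell are kept for genes whose edgeR p, adjusted over all genes tested, is under 0.05. The defining markers of the labelled cell type were mostly near 0: SFTPC, the most type 2-specific of the surfactant genes, had 0 to 7 counts in a library, SFTPA1 had 0 to 2 and SFTPA2 had 0 to 7. Of 10 type 2 markers 7 passed the filter, and their summed level was 46.8 and 52.5 CPM in the untreated libraries, 41.9 and 65.3 CPM at 24 µg/ml, 46.2 and 38.5 CPM at 240 µg/ml and 39.4 and 48.7 CPM at 480 µg/ml. Against untreated cells at 480 µg/ml 3 of the 7 were called lower and 1 higher, where 13.9% of all tested genes were called lower and 13.9% higher. ABCA3, a lipid transporter of lamellar bodies, rose to 25.7 and 32.2 CPM at 480 µg/ml, against 11.9 and 14.2 CPM in untreated cells, and NKX2-1, the lung lineage factor, fell to 0.263 and 0.308 CPM at 480 µg/ml, against 0.827 and 1.02 CPM in untreated cells. Markers of other cells moved as well. The 7 hepatic markers, all of which passed, summed to 53629 and 55184 CPM in the untreated libraries, 58724 and 40250 CPM at 24 µg/ml, 84075 and 77029 CPM at 240 µg/ml and 68714 and 64196 CPM at 480 µg/ml. Most of that was AFP, with a mean of 43349 CPM in untreated cells, and 2 of the 7 rose at 480 µg/ml. The intestinal markers, 5 of 6 of which passed, summed to 3040 and 2652 CPM at 480 µg/ml, against 2766 and 2758 CPM in untreated cells. CDX2 among them rose to 363 and 415 CPM at 480 µg/ml, against 206 and 190 CPM in untreated cells. LGALS4 fell to 48.2 and 57.9 CPM at 480 µg/ml, against 173 and 147 CPM in untreated cells, and FABP1 fell too. The 7 mesenchymal markers, all of which passed, summed to between 404 and 531 CPM in all 8 libraries, most of it LUM. At 480 µg/ml 4 of them fell and 1 rose, with a median log2 fold change of -0.71. PDGFRA fell to 13.3 and 8.59 CPM at 480 µg/ml, against 27.7 and 36.6 CPM in untreated cells. COL3A1 fell to 25.6 and 26.7 CPM at 480 µg/ml, against 47.1 and 59.5 CPM in untreated cells, and DCN and PDGFRB fell too. Of 5 pluripotency markers 2 passed, POU5F1 had 0 counts in all 8 libraries, and the sum, nearly all of it SOX2, was 20.9 and 22.4 CPM in the untreated libraries, 22.8 and 22.2 CPM at 24 µg/ml, 13.8 and 21.5 CPM at 240 µg/ml and 13.7 and 13.4 CPM at 480 µg/ml. Of 5 epithelial, 5 endothelial and 4 immune markers 1, 1 and 0 fell and 0, 1 and 1 rose at 480 µg/ml. The 2 endothelial calls were of genes with few counts. CLDN5 had 6 and 14 counts in the untreated libraries and 0 and 0 at 480 µg/ml. TEK had 0 and 0 counts in the untreated libraries and 10 and 11 at 480 µg/ml. The part of these markers in the results below was not tested. CPM here are counts scaled to a common library size with TMM factors.

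The promoters are shown first because most of the group shares a short motif near the transcript start. Of the 54 genes, 45 were found in the RefSeq promoter table (GRCh38.p14), which gives 250 bases before and 50 bases after each transcript start. AURKA, FOXM1, PBK, KNL1, TTK, UBE2C, BIRC5, TPX2 and RACGAP1 had no entry. The motifs searched were TTTGAA and TTCGAA for the CHR and CCAAT for the NF-Y box, on both strands, and matches of different motifs may overlap. The windows printed for 6 genes run 5′ to 3′ on the gene's own strand and end with the first 20 bases of the transcript. Matches are in capitals, with TTCAAA and ATTGG being TTTGAA and CCAAT read on the other strand. They belong to CDK1 (chr10:60778430-60778497, plus strand), CCNB2 (chr15:59105060-59105165, plus strand), PLK1 (chr16:23678803-23678908, plus strand), CDC25C (chr5:138331785-138331891, minus strand), BUB1B (chr15:40160989-40161088, plus strand) and NDC80 (chr18:2571497-2571576, plus strand).
CDK1: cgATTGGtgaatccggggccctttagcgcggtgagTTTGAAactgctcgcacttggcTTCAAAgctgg
CCNB2: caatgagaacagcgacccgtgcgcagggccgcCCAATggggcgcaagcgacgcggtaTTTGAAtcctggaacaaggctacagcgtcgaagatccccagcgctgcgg
PLK1: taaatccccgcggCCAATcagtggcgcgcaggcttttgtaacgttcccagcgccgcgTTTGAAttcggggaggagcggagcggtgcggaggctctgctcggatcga
CDC25C: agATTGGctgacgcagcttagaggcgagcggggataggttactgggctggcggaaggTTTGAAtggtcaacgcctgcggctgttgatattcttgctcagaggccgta
BUB1B: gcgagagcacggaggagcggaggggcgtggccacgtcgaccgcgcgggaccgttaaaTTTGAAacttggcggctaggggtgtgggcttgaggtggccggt
NDC80: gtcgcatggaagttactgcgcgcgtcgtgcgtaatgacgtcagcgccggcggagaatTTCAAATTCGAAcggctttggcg

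In CCNB2, PLK1 and CDC25C, which act at entry into mitosis, the CHR began 29, 29 and 30 bases before the start, downstream of a CCAAT box. BUB1B, a checkpoint kinase gene, had its CHR 23 bases before the start and no CCAAT in the stretch shown. CDK1 had a second CHR on the other strand after the start, and in NDC80, a kinetochore gene, TTCAAA and TTCGAA stood side by side at the start itself.

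Across the 45 promoters, 35 (77.8%) held a CHR of either form, against 16.0% of the promoters of 13134 tested genes in the table and 19.5% of all 27305 genes in it. The form TTTGAA alone was in 32 (71.1%), against 14.3% of tested genes. A CCAAT box was in 38 (84.4%), against 42.3% of tested genes, and both motifs in 30 (66.7%), against 8.56%. The position was as marked as the presence: 31 of the 45 (68.9%) had a CHR within 50 bases of a start, against 4.83% of tested genes. These genes are known as targets of the complexes that bind the motif, so the counts describe the list and are not a result of the treatment. The 10 matched genes with neither form in the window were CCNA2, CCNB1, MELK, NEK2, CENPE, SPC24, PTTG1, SGO2, AURKB and NCAPH. Other forms of the CHR were not searched, so these genes may still hold one. At 480 µg/ml against untreated cells the median log2 fold change was -1.46 in the 35 genes with either form (from -2.48 to -0.86) and -1.23 in the 10 with neither (from -1.93 to -0.51), ranges that overlapped between -1.93 and -0.86. AURKB, with neither form in its window, was among the genes that fell furthest. A match is a description of letters and shows no binding.

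**Figure D1:**
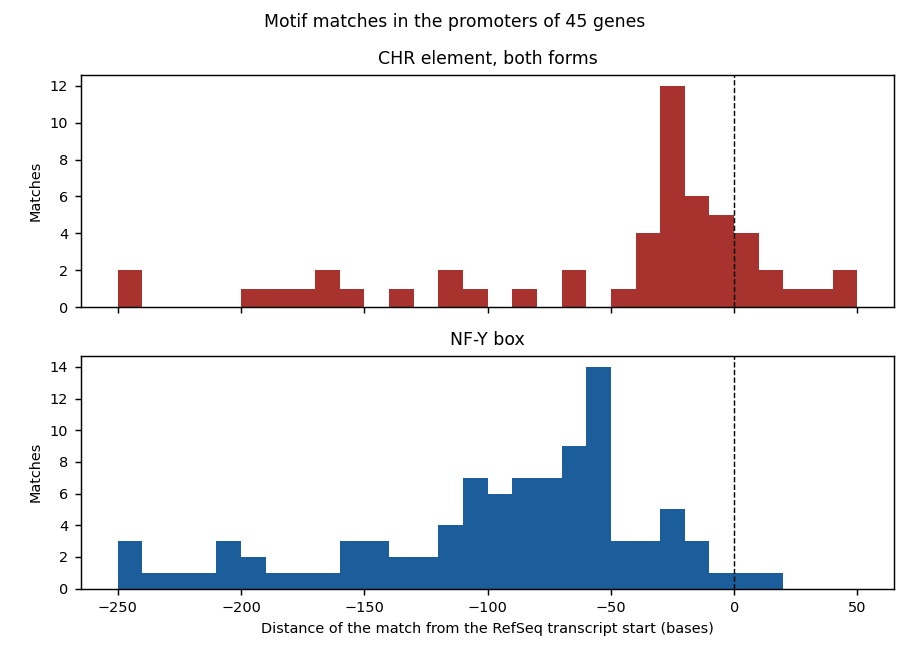
Number of matches (y axis) by distance from the RefSeq transcript start in bases (x axis, 10-base bins, dashed line at the start) in the promoters of 45 mitosis and G2 genes, with CHR matches of both forms above and CCAAT matches below. CHR matches pile up near the start, and 31 of the 45 genes have one within 50 bases on either side of it. CCAAT matches lie mostly further upstream.

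Per length, the genes covered a wide range of levels. In untreated cells the median of the 54 was 24.3 TPM, and it was 23.7 TPM at 24 µg/ml, 12.9 TPM at 240 µg/ml and 9.12 TPM at 480 µg/ml. CKS1B and CKS2, small subunits that dock onto CDK kinases, stood at 174 ± 10.5 and 136 ± 1.78 TPM in untreated cells (SD, n = 2), followed by the ubiquitin-conjugating gene UBE2C at 118 ± 2.11 TPM, the cyclin gene CCNB1 at 100.2 ± 3.56 TPM and the topoisomerase gene TOP2A at 98.4 ± 9.06 TPM. CCNB1 and TOP2A lay within their spread of each other. The lowest were SPC24 at 3.54 ± 0.0626 TPM and KNL1 at 4.89 ± 0.744 TPM, both of the outer kinetochore. The 4 subunits of the NDC80 complex, which are built in equal numbers, had unequal RNA levels in untreated cells: NDC80 13.2 ± 0.226 TPM, NUF2 12.5 ± 0.460 TPM, SPC25 7.92 ± 0.404 TPM and SPC24 3.54 ± 0.0626 TPM (SD, n = 2).

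At 24 µg/ml, none of the 54 genes was called lower or higher than in untreated cells, and none had an unadjusted p under 0.05. The background was 0% of 18303 genes called lower and 0% called higher. Log2 fold changes ran from -0.18 (NDC80) to 0.20 (UBE2C), with 27 of 54 below 0 and a median of -0.00, against 0.01 over all genes. In 8 genes both libraries of 24 µg/ml lay below both untreated ones, while the background for that was 17.8%. DESeq2 also called none of them. Summed over the 54 genes, the level was 2182 and 2284 CPM at 24 µg/ml, against 2189 and 2237 CPM in untreated cells.

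At 240 µg/ml, 41 of the 54 genes (75.9%) fell against untreated cells and none rose, where 5.17% of all tested genes were called lower. The median log2 fold change was -0.77, against 0.01 over all genes, and the range ran from -1.57 (CENPF) to 0.02 (SPC24). In 53 genes both libraries of 240 µg/ml lay below both untreated ones, where the background was 32.2%, and SPC24 was the exception. The summed level was 1283 and 1198 CPM at 240 µg/ml, against 2189 and 2237 CPM in untreated cells, or 56.05% of the untreated mean. The 13 genes not called were CDK1, CENPE, CKAP2L, HMMR, NEK2, NUF2, PBK, RACGAP1, SGO2, SPC24, SPC25, TOP2A and ZWINT, with log2 fold changes from -1.40 (CENPE) to 0.02 (SPC24). The number of calls rested on the libraries: without any single library of untreated cells or of 240 µg/ml it was far lower than 41. The number called lower over all genes was far lower too. In those 4 fits the median stayed between -0.80 and -0.70 and 46 to 50 genes kept an unadjusted p under 0.05.

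At 480 µg/ml, 53 of the 54 genes (98.1%) fell against untreated cells and none rose, where 13.9% of all tested genes were called lower. In all 54, both libraries of that dose lay below both untreated ones (background 30.3%). The median log2 fold change was -1.36, against 0.01 over all genes, and the range ran from -2.48 (CENPF) to -0.51 (SPC24, the gene not called). The summed level was 878 and 682 CPM at 480 µg/ml, against 2189 and 2237 CPM in untreated cells, or 35.2% of the untreated mean. Without untreated replicate 2, CENPE was not called (edgeR adjusted p = 0.0639), and SGO2, a shugoshin gene with -1.03 ± 0.27 (edgeR adjusted p = 0.0231), was not called in the fit of the 2 groups alone, with limma on TPM or without either untreated replicate, with an adjusted p of at most 0.118 in these fits. By function, the sum stood lowest for the 4 genes of chromosome structure at 29.3% of the untreated mean and highest for the 17 genes of mitotic entry at 39.9%. That order rested on replicate 2 of 480 µg/ml. In replicate 1 the sum stood lowest for the passenger complex at 32.6%, with chromosome structure at 37.3%. It stood highest for the spindle genes at 44.9%, with mitotic entry at 41.5%. Sums also weigh the genes with the most counts. By median log2 fold change, cytokinesis (-1.69) and the passenger complex (-1.68) lay below chromosome structure (-1.47), with mitotic entry at -1.27. Comparisons with untreated cells share the same 2 untreated libraries, so the counts at 240 and 480 µg/ml are not independent of each other.

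**Figure D2:**
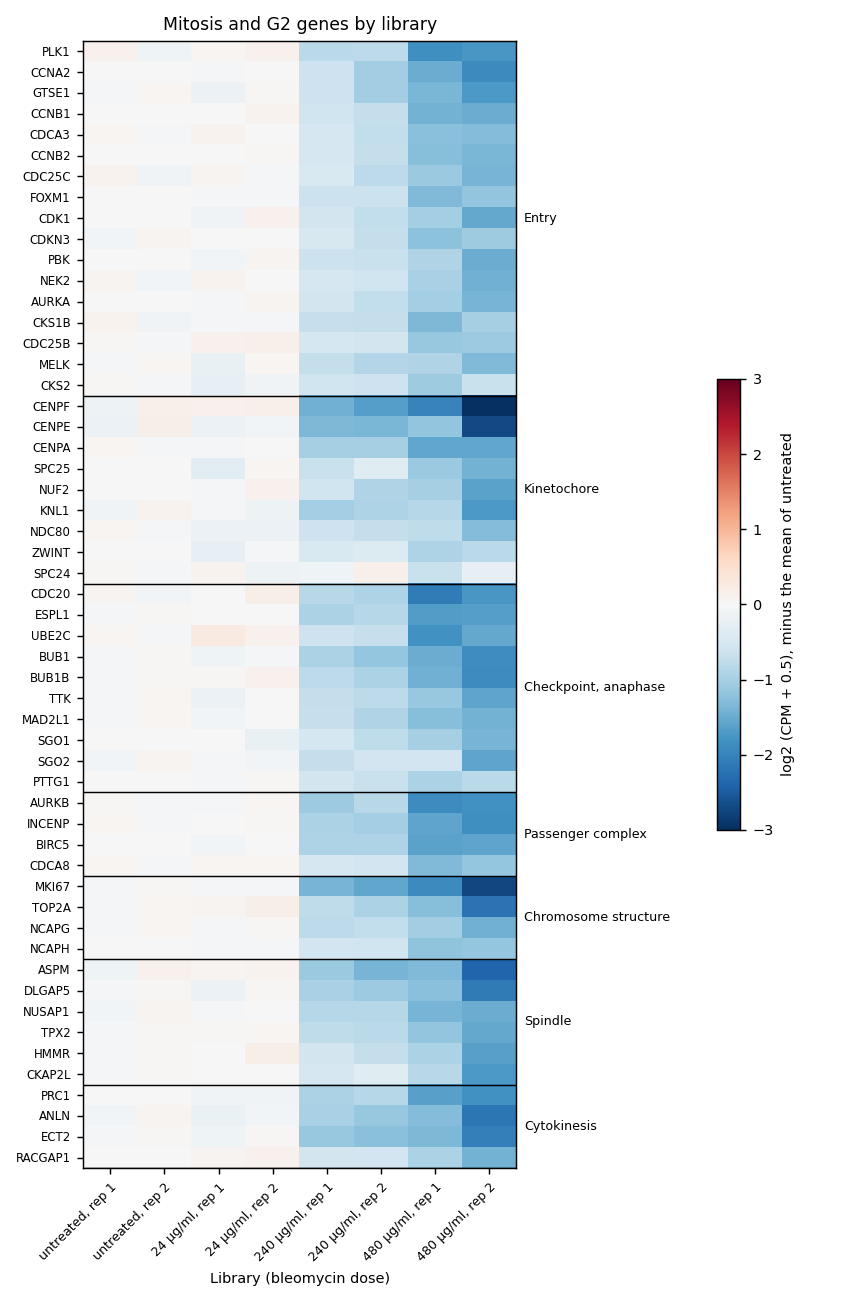
Each row is a gene of the group, ordered within its function by its fold change at 480 µg/ml, and each column a library in order of dose; colour gives log2 (CPM + 0.5) minus the mean of the 2 untreated libraries, blue being lower. The untreated and 24 µg/ml columns are pale, the 240 µg/ml columns are blue with medians of -0.68 and -0.78, and the 480 µg/ml columns are darker with medians of -1.25 and -1.54; SPC24 is pale up to 240 µg/ml.

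Among the 17 genes of entry into mitosis, 14 fell at 240 µg/ml and all 17 at 480 µg/ml, with medians of -0.65 and -1.27. PLK1, the kinase that drives centrosome maturation and activates CDC25C, had 52.3 and 44.1 CPM in the untreated libraries, 50.2 and 52.8 CPM at 24 µg/ml, 27.3 and 27.7 CPM at 240 µg/ml and 13.0 and 13.9 CPM at 480 µg/ml. CCNB1, the cyclin that activates CDK1, had 89.0 and 87.7 CPM in the untreated libraries, 88.5 and 94.6 CPM at 24 µg/ml, 58.2 and 53.4 CPM at 240 µg/ml and 32.8 and 31.4 CPM at 480 µg/ml. In both genes the 2 higher doses were clear of the untreated libraries and of each other. Against untreated cells the log2 fold change at 480 µg/ml was -1.84 ± 0.13 for PLK1 (SE, edgeR adjusted p = 0.000107), the lowest of the entry genes, and -1.46 ± 0.12 for CCNB1 (edgeR adjusted p = 0.000147).

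CDK1, the kinase itself, had 54.5 and 56.2 CPM in the untreated libraries, 51.8 and 61.0 CPM at 24 µg/ml, 37.6 and 33.2 CPM at 240 µg/ml and 27.1 and 18.8 CPM at 480 µg/ml. Its 2 libraries at 480 µg/ml stood further apart than those of PLK1 or CCNB1. It fell at 480 µg/ml (-1.27 ± 0.18, edgeR adjusted p = 0.00157), while at 240 µg/ml it had -0.65 ± 0.18 (edgeR adjusted p = 0.0532). AURKA, the centrosomal Aurora kinase, had 67.1 and 68.3 CPM in the untreated libraries, 64.4 and 71.5 CPM at 24 µg/ml, 46.4 and 40.3 CPM at 240 µg/ml and 33.0 and 25.5 CPM at 480 µg/ml. FOXM1, the transcription factor that raises many genes of the group, had 52.6 and 52.2 CPM in the untreated libraries, 51.0 and 50.3 CPM at 24 µg/ml, 33.1 and 33.4 CPM at 240 µg/ml and 20.7 and 22.8 CPM at 480 µg/ml. Both fell at 240 µg/ml, by 0.64 and 0.66 on the log2 scale, and at 480 µg/ml, by 1.21 and 1.27.

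The CDK docking subunits fell at both higher doses. CKS1B had 64.8 and 55.4 CPM in the untreated libraries, 58.4 and 57.9 CPM at 24 µg/ml, 37.0 and 36.4 CPM at 240 µg/ml and 23.3 and 29.7 CPM at 480 µg/ml. CKS2 had 37.3 and 35.6 CPM in the untreated libraries, 30.8 and 33.9 CPM at 24 µg/ml, 24.0 and 23.4 CPM at 240 µg/ml and 17.1 and 22.9 CPM at 480 µg/ml. The log2 fold change at 480 µg/ml was -1.18 ± 0.15 for CKS1B (edgeR adjusted p = 0.000896) and -0.86 ± 0.15 for CKS2 (edgeR adjusted p = 0.00389), the highest of the entry genes, and 1 library of CKS2 at 480 µg/ml lay just under those of 240 µg/ml. Pseudogene copies make CKS1B uncertain: CKS1BP2 and CKS1BP3 held 1327 and 913 counts over the 8 libraries, against 21944 for CKS1B, and reads can be split among them. CDC25C shares 276 exon bases with FAM53C on the opposite strand, which had a mean of 4111 counts a library, against 637 for CDC25C. Which strand was counted is not given in the sources used here, so the value of CDC25C is uncertain too.

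**Figure D3:**
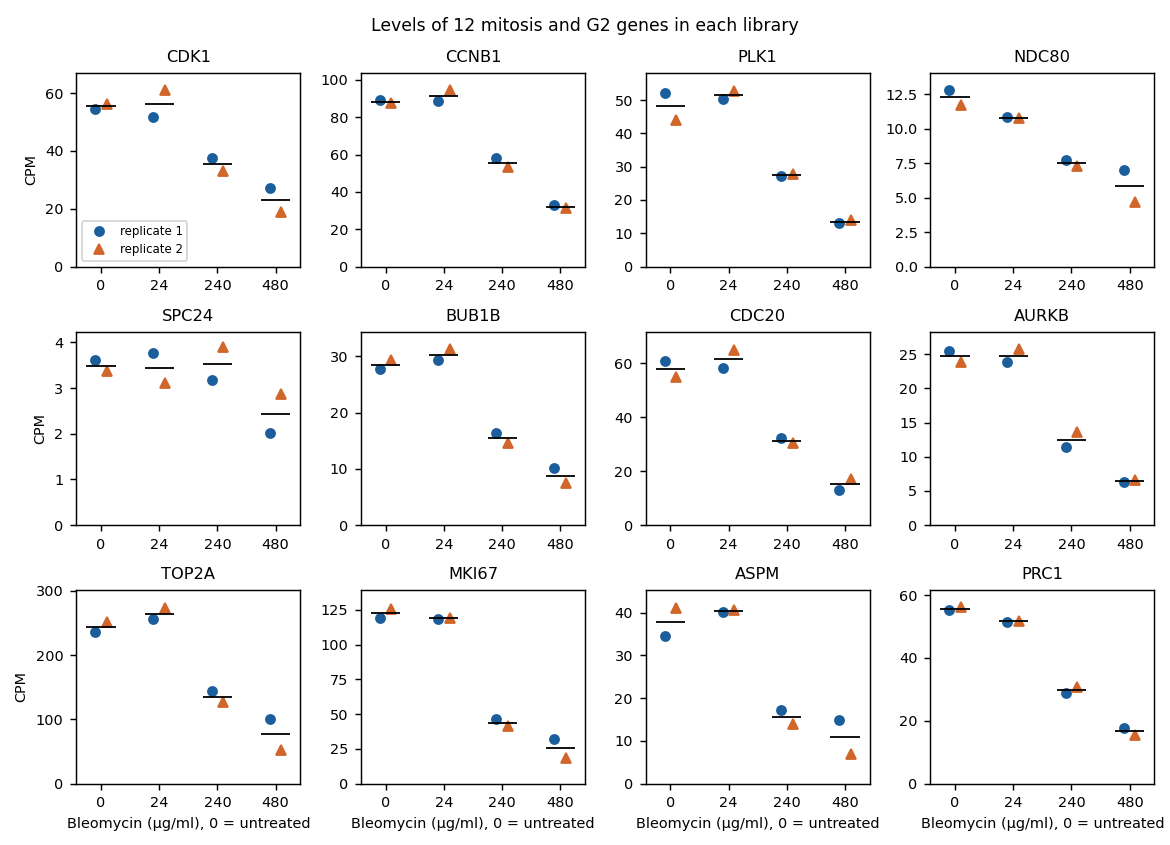
CPM (y axis, from 0) of 12 genes against the bleomycin dose in µg/ml (x axis, categories, 0 being untreated), with a circle for replicate 1, a triangle for replicate 2 and a line at their mean. In all panels but that of SPC24 the means step down to 240 µg/ml and again to 480 µg/ml, as in CCNB1 with 32.8 and 31.4 CPM at 480 µg/ml, while the SPC24 libraries of untreated cells, 24 µg/ml and 240 µg/ml overlap.

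The 9 genes of the centromere and outer kinetochore held both ends of the range: 4 fell at 240 µg/ml and 8 at 480 µg/ml. CENPF, a large kinetochore protein gene, had 55.6 and 68.6 CPM in the untreated libraries, 67.9 and 69.1 CPM at 24 µg/ml, 22.6 and 19.3 CPM at 240 µg/ml and 15.1 and 7.23 CPM at 480 µg/ml. It had the lowest log2 fold change of the whole group at both higher doses against untreated cells, -1.57 ± 0.28 at 240 µg/ml (edgeR adjusted p = 0.0136) and -2.48 ± 0.30 at 480 µg/ml (edgeR adjusted p = 0.00075). SPC24, a subunit of the NDC80 complex that holds microtubules, had 3.61 and 3.37 CPM in the untreated libraries, 3.78 and 3.11 CPM at 24 µg/ml, 3.17 and 3.90 CPM at 240 µg/ml and 2.02 and 2.87 CPM at 480 µg/ml. It was the only gene of the 54 called at no dose, with a log2 fold change of -0.51 ± 0.23 at 480 µg/ml (edgeR adjusted p = 0.129). It was called without 480 µg/ml replicate 2 (edgeR adjusted p = 0.0339) and under no other alternative, in a range of 0.0339 to 0.347.

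The other 3 subunits of that complex fell at 480 µg/ml. NDC80 had 12.8 and 11.7 CPM in the untreated libraries, 10.8 and 10.8 CPM at 24 µg/ml, 7.74 and 7.33 CPM at 240 µg/ml and 7.03 and 4.68 CPM at 480 µg/ml. The log2 fold changes at 480 µg/ml were -1.07 ± 0.19 for NDC80 (edgeR adjusted p = 0.00402), -1.37 ± 0.23 for NUF2 (edgeR adjusted p = 0.00315) and -1.49 ± 0.24 for SPC25 (edgeR adjusted p = 0.00248). SPC24 and SPC25 were among the genes with the fewest counts, from 115 to 250 and from 87 to 330 in a library. Whether SPC24 differed from the other subunits was not tested. ZWINT, which links the checkpoint to kinetochores, had 25.0 and 24.7 CPM in the untreated libraries, 20.9 and 24.1 CPM at 24 µg/ml, 17.9 and 18.5 CPM at 240 µg/ml and 12.8 and 13.9 CPM at 480 µg/ml, with -0.90 ± 0.13 at 480 µg/ml (edgeR adjusted p = 0.00149). CENPE, the kinetochore kinesin, had 26.9 and 34.2 CPM in the untreated libraries, 27.0 and 28.7 CPM at 24 µg/ml, 11.6 and 11.5 CPM at 240 µg/ml and 13.1 and 4.20 CPM at 480 µg/ml. Its libraries at 480 µg/ml lay on either side of those at 240 µg/ml, and its SE of 0.40 was the widest of the group at that dose (-1.83, edgeR adjusted p = 0.0105).

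Of the 10 genes of the spindle checkpoint, sister cohesion and anaphase onset, 9 fell at 240 µg/ml and all 10 at 480 µg/ml, with medians of -0.79 and -1.54. CDC20, which activates the anaphase-promoting complex, had 61.0 and 55.0 CPM in the untreated libraries, 58.3 and 65.1 CPM at 24 µg/ml, 32.2 and 30.3 CPM at 240 µg/ml and 13.2 and 17.0 CPM at 480 µg/ml. UBE2C, the enzyme that supplies ubiquitin to that complex, had 41.8 and 38.1 CPM in the untreated libraries, 48.1 and 43.5 CPM at 24 µg/ml, 25.7 and 24.7 CPM at 240 µg/ml and 11.0 and 13.3 CPM at 480 µg/ml. BUB1B, which encodes the checkpoint protein BubR1, had 27.7 and 29.3 CPM in the untreated libraries, 29.4 and 31.2 CPM at 24 µg/ml, 16.3 and 14.6 CPM at 240 µg/ml and 10.2 and 7.39 CPM at 480 µg/ml. Against untreated cells the log2 fold changes at 480 µg/ml of CDC20 (-1.94 ± 0.15, edgeR adjusted p = 0.000144), UBE2C (-1.72 ± 0.14, edgeR adjusted p = 0.000166) and BUB1B (-1.70 ± 0.16, edgeR adjusted p = 0.000319) were all below the median of the group. PTTG1, the securin that holds separase inactive, had 31.0 and 30.2 CPM in the untreated libraries, 29.4 and 31.4 CPM at 24 µg/ml, 20.7 and 19.0 CPM at 240 µg/ml and 15.7 and 17.2 CPM at 480 µg/ml. It had -0.90 ± 0.12 at 480 µg/ml (edgeR adjusted p = 0.00123), while ESPL1, the gene of separase itself, had -1.74 ± 0.12 (edgeR adjusted p = 0.000107). CDC20 has a pseudogene, CDC20P1, with 405 counts over the 8 libraries, against 20225 for CDC20.

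All 4 genes of the chromosomal passenger complex, which corrects wrong attachments, fell at both 240 and 480 µg/ml against untreated cells. AURKB, its kinase, had 25.5 and 23.9 CPM in the untreated libraries, 23.8 and 25.7 CPM at 24 µg/ml, 11.4 and 13.6 CPM at 240 µg/ml and 6.33 and 6.66 CPM at 480 µg/ml. BIRC5, the survivin gene, had 47.2 and 46.0 CPM in the untreated libraries, 44.3 and 46.4 CPM at 24 µg/ml, 24.2 and 24.3 CPM at 240 µg/ml and 15.1 and 15.3 CPM at 480 µg/ml. CDCA8, the borealin gene, had 30.9 and 28.8 CPM in the untreated libraries, 31.4 and 31.3 CPM at 24 µg/ml, 21.1 and 20.0 CPM at 240 µg/ml and 11.7 and 13.1 CPM at 480 µg/ml. The libraries of a dose lay close together in these genes, and the summed level of the complex was 50.2 and 49.5 CPM at 480 µg/ml, against 158 and 150 CPM in untreated cells. The log2 fold changes at 480 µg/ml were -1.93 ± 0.14 for AURKB and -1.61 ± 0.11 for BIRC5 (edgeR adjusted p = 0.000107 for both), and -1.27 ± 0.12 for CDCA8 (edgeR adjusted p = 0.000319).

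Of the 4 genes of chromosome structure, 3 fell at 240 µg/ml and all 4 at 480 µg/ml. MKI67, which coats mitotic chromosomes and is the standard marker of cycling cells, had 119 and 126 CPM in the untreated libraries, 118 and 119 CPM at 24 µg/ml, 46.2 and 41.3 CPM at 240 µg/ml and 32.4 and 18.1 CPM at 480 µg/ml. TOP2A, which untangles sister DNA, had 235 and 251 CPM in the untreated libraries, 255 and 273 CPM at 24 µg/ml, 144 and 126 CPM at 240 µg/ml and 101 and 52.3 CPM at 480 µg/ml. NCAPH, a condensin subunit, had 18.4 and 18.0 CPM in the untreated libraries, 17.6 and 17.7 CPM at 24 µg/ml, 12.0 and 11.9 CPM at 240 µg/ml and 7.59 and 7.89 CPM at 480 µg/ml. MKI67 came next to CENPF in the size of its fall, with -1.49 ± 0.23 at 240 µg/ml (edgeR adjusted p = 0.00779) and -2.28 ± 0.24 at 480 µg/ml (edgeR adjusted p = 0.000411), and it and TOP2A were far lower in replicate 2 of 480 µg/ml than in replicate 1. In replicate 1 of 480 µg/ml alone, MKI67 stood at -1.91 against the untreated mean, above CDC20 at -2.10. TOP2A had -0.85 ± 0.25 at 240 µg/ml, which was not called (edgeR adjusted p = 0.0648), and -1.67 ± 0.26 at 480 µg/ml (edgeR adjusted p = 0.00209). NCAPG, the other condensin subunit of the group, shares 1631 exon bases with LCORL on the opposite strand and is uncertain for the same reason as CDC25C.

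Among the 6 spindle genes, 4 fell at 240 µg/ml and all 6 at 480 µg/ml. TPX2, which starts microtubules around chromosomes and activates AURKA, had 86.3 and 90.0 CPM in the untreated libraries, 90.3 and 91.6 CPM at 24 µg/ml, 52.0 and 50.1 CPM at 240 µg/ml and 38.8 and 30.0 CPM at 480 µg/ml. ASPM, a protein of the spindle poles, had 34.6 and 41.0 CPM in the untreated libraries, 40.1 and 40.7 CPM at 24 µg/ml, 17.2 and 14.0 CPM at 240 µg/ml and 14.9 and 6.87 CPM at 480 µg/ml. CKAP2L, which binds spindle microtubules, had 56.0 and 58.5 CPM in the untreated libraries, 57.5 and 57.0 CPM at 24 µg/ml, 40.5 and 44.7 CPM at 240 µg/ml and 31.8 and 16.9 CPM at 480 µg/ml. The log2 fold changes at 480 µg/ml were -1.36 ± 0.14 for TPX2 (edgeR adjusted p = 0.00042), -1.80 ± 0.30 for ASPM (edgeR adjusted p = 0.00297) and -1.23 ± 0.24 for CKAP2L (edgeR adjusted p = 0.00653). ASPM and CKAP2L were another pair in which replicate 2 lay well under replicate 1 at 480 µg/ml, and one ASPM library of that dose lay among those of 240 µg/ml.

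Of the 4 genes of the central spindle and cytokinesis, 3 fell at 240 µg/ml and all 4 at 480 µg/ml. PRC1, which bundles microtubules between the parting chromosomes, had 55.2 and 56.1 CPM in the untreated libraries, 51.5 and 51.9 CPM at 24 µg/ml, 28.8 and 30.6 CPM at 240 µg/ml and 17.8 and 15.5 CPM at 480 µg/ml. It shares 2716 exon bases with AC068831.7 on the same strand, and the spindle gene NUSAP1 shares 1787 with AC087721.2. Neither partner has its own counts, and strand cannot separate such reads, so both genes are uncertain. ANLN, the anillin gene of the contractile ring, had 48.1 and 53.1 CPM in the untreated libraries, 44.2 and 47.9 CPM at 24 µg/ml, 25.3 and 22.8 CPM at 240 µg/ml and 20.1 and 10.9 CPM at 480 µg/ml. RACGAP1, part of the centralspindlin complex, had 36.2 and 36.7 CPM in the untreated libraries, 38.5 and 39.8 CPM at 24 µg/ml, 24.6 and 24.3 CPM at 240 µg/ml and 18.8 and 13.3 CPM at 480 µg/ml. PRC1 (-1.74 ± 0.12, edgeR adjusted p = 0.000107) and ANLN (-1.71 ± 0.24, edgeR adjusted p = 0.00157) fell to about the same extent at 480 µg/ml, ANLN with the wider error, and RACGAP1 had -1.18 ± 0.16 (edgeR adjusted p = 0.00129).

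**Figure D4:**
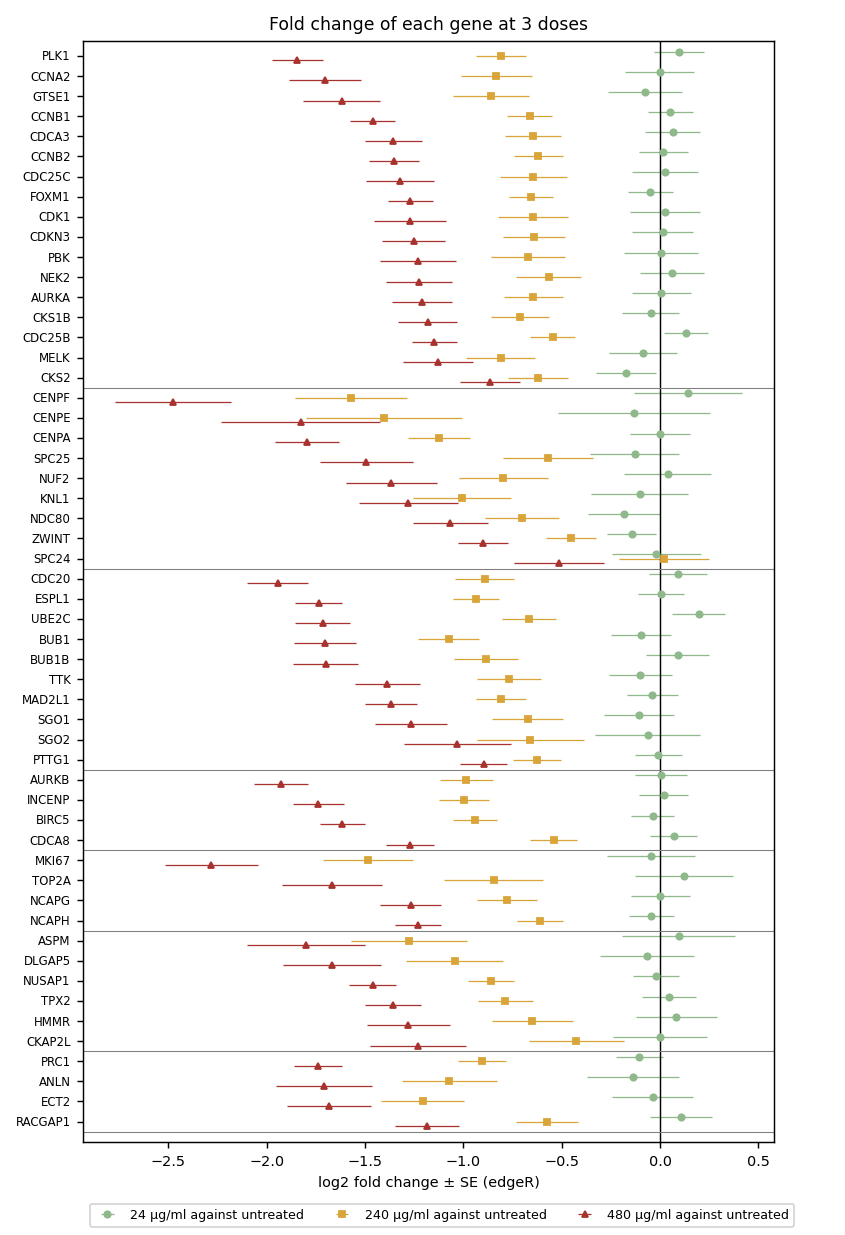
Log2 fold change against untreated cells (x axis, edgeR, bars are ± 1 SE) of the 54 genes (rows, grouped by function) at 24 µg/ml (circles), 240 µg/ml (squares) and 480 µg/ml (triangles). The circles lie between -0.18 and 0.20, the squares have a median of -0.77 and the triangles a median of -1.36; SPC24 is the row whose squares and circles coincide near 0.

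Set against each other, the doses differed as well. At 240 µg/ml 36 of the 54 genes fell against 24 µg/ml and none rose, where 3.49% of all tested genes were called lower and 3.34% higher. The median log2 fold change was -0.75. That count was lower without any single library of untreated cells, 24 or 240 µg/ml. It was higher without either library of 480 µg/ml, and the count over all genes moved the same way each time. The median stayed between -0.83 and -0.67 in these fits. MKI67 (-1.44 ± 0.23, edgeR adjusted p = 0.0144) and CENPF (-1.71 ± 0.29, edgeR adjusted p = 0.0162) were among those that fell.

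At 480 µg/ml, 7 of the 54 genes fell against 240 µg/ml and none rose, where 0.229% of all tested genes were called lower and 0.0273% higher. They were PLK1 (-1.04 ± 0.13, edgeR adjusted p = 0.0337) and CCNB1 (-0.80 ± 0.12) of mitotic entry, UBE2C (-1.05 ± 0.14), CDC20 (-1.05 ± 0.15) and ESPL1 (-0.80 ± 0.12) of anaphase onset, AURKB (-0.94 ± 0.14) and PRC1 (-0.83 ± 0.12), the last 6 each with edgeR adjusted p = 0.0402. All 54 log2 fold changes were below 0 (51 without 480 µg/ml replicate 2), with a median of -0.62, against 0.00 over all genes, and 45 of 54 had an unadjusted p under 0.05, against 1311 of 18303 genes with a negative log2 fold change. The number of calls varied between fits. DESeq2 called 29, and 284 of all genes lower, and a fit with no filter on low counts called 28, and 380 of all genes. A fit of the 2 groups alone and limma on TPM called 0, and 0 of all genes. The count was higher without either library of 480 µg/ml and lower without any other single library, as was the count over all genes. The median stayed between -0.86 and -0.48 in these fits. The libraries of 480 µg/ml lay close together in PLK1, with 13.0 and 13.9 CPM, and in ESPL1, with 6.79 and 6.86 CPM, and further apart in CDC20, with 13.2 and 17.0 CPM.

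The 2 libraries of 480 µg/ml differed more than those of any other dose, and in these genes they differed mostly one way. Over the 54 genes the log2 ratio of the libraries had an SD of 0.124 in untreated cells, 0.111 at 24 µg/ml, 0.147 at 240 µg/ml and 0.416 at 480 µg/ml. At the highest dose 38 of 54 genes were lower in replicate 2, and 13 of them by over 1.5-fold. The difference followed transcript length, taken as the longest coding transcript in GENCODE v29. Of the 18 genes with the longest transcripts (3605 to 12678 bases), 17 were lower in replicate 2, against 9 of the 18 with the shortest (613 to 2227 bases). Across the 54 genes the log2 ratio of replicate 2 to replicate 1 had Pearson r = -0.693 and Spearman rho = -0.616 with log2 length at 480 µg/ml, as a description, since all points share the same 2 libraries and genes are not independent replicates. At 240 and 24 µg/ml r was -0.104 and -0.117, and in untreated cells, where the ratios were small, it was 0.647. Over 14807 tested genes with a length, r at 480 µg/ml was -0.479. These r compare only the 2 libraries of a group. Against the untreated mean, the 18 longest had medians of -0.94 and -0.93 in the 240 µg/ml libraries and the 18 shortest -0.615 and -0.716. All tested genes of those lengths had medians of -0.06 and -0.07 in the longest range and 0.08 and 0.10 in the shortest.

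CENPE had the lowest log2 ratio at 480 µg/ml, -1.53, and SPC24 the highest, 0.42, next to CKS2, which has the shortest transcript, with 0.41. ESPL1 went against the trend, with a transcript of 6623 bases and a ratio of 0.01. Replicate 2 of 480 µg/ml also had more ribosomal RNA, 3.30% of counts against 1.21% in replicate 1, and more from mitochondrially encoded genes, 2.33% against 1.16%. Their part in the difference was not tested. The fall against untreated cells was present at both ends of the length range and in each library. The 18 longest had medians of -1.29 and -1.82 on the log2 scale in replicates 1 and 2 of 480 µg/ml, and the 18 shortest had -1.11 and -1.46. All tested genes of the same lengths had medians of 0.02 and -0.19 in the longest range and -0.04 and 0.21 in the shortest. Calls at 480 µg/ml against untreated cells numbered 53 without replicate 1 and 54 without replicate 2. With 10 length classes centred in each library, a setting added once the data had been seen, they numbered 53 at 480 µg/ml and 49 at 240 µg/ml against untreated cells, and 15 at 480 against 240 µg/ml.

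**Figure D5:**
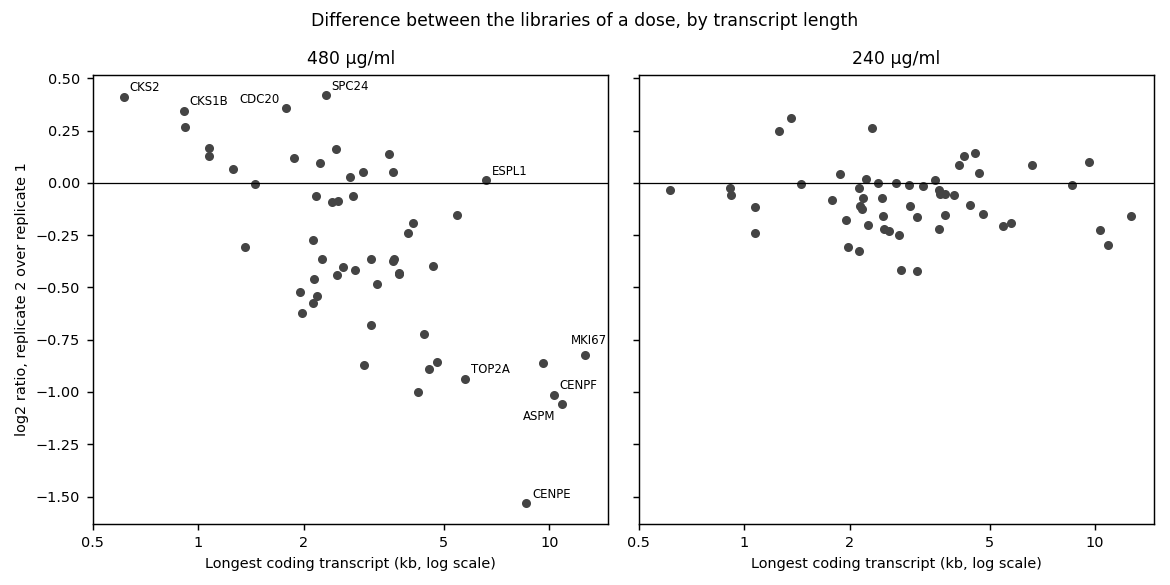
Log2 ratio of replicate 2 to replicate 1 (y axis) against the length of the longest coding transcript in kb (x axis, log scale) for the 54 genes, at 480 µg/ml on the left and 240 µg/ml on the right. At 480 µg/ml the points slope down (r = -0.693), with CENPE lowest at -1.53, and at 240 µg/ml they scatter around 0 (r = -0.104).

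Genes that work beside the group were read from lists of textbook members, against a background over all tested genes of 5.17% called lower at 240 µg/ml and 13.9% at 480 µg/ml. Of 12 tested mitotic kinesin genes 8 fell at 240 µg/ml and all 12 at 480 µg/ml against untreated cells, with a median of -1.48 at the higher dose. Of 37 DNA replication genes 16 fell and 1 rose at 240 µg/ml, and 29 fell and 1 rose at 480 µg/ml, with a median of -1.05. Of 21 inner kinetochore genes 4 fell at 240 µg/ml and 9 at 480 µg/ml, with a median of -0.51 and HJURP, the chaperone that loads CENPA, at -1.51 ± 0.18 (edgeR adjusted p = 0.00076). Its client CENPA, one of the 54 genes, had -1.79 ± 0.16 (edgeR adjusted p = 0.000271). Of 16 other condensin and cohesin genes 1 fell at 240 µg/ml, about the share called lower over all genes. All 16 had log2 fold changes below 0 at that dose, with a median of -0.47, against 0.01 over all genes. Of them 11 had an unadjusted edgeR p under 0.05, against 2359 of 18303 genes with a negative log2 fold change. At 480 µg/ml 9 fell, with a median of -0.61 and CDCA5, the sororin gene that protects cohesin, at -1.08 ± 0.13 (edgeR adjusted p = 0.000753). Those subunits also serve interphase chromosomes. Whether these lists differ from the 54 genes was not tested.

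Of 17 tested subunits and partners of the anaphase-promoting complex, the enzyme that CDC20 and UBE2C serve, 3 fell and 1 rose at 480 µg/ml against untreated cells, with a median of 0.10. Over all tested genes 13.9% were called lower and 13.9% higher at that dose. FBXO5, the EMI1 inhibitor of the complex, fell (-1.21 ± 0.18, edgeR adjusted p = 0.00167), and the subunit gene ANAPC13 rose (0.47 ± 0.12, edgeR adjusted p = 0.0172). Of 15 transcription factors and DREAM or MuvB subunits that act on G2 and mitosis genes, 4 fell at 240 µg/ml and 7 at 480 µg/ml, and none rose. E2F8, a repressor of the E2F family, fell furthest (-1.84 ± 0.21, edgeR adjusted p = 0.000587), followed by MYBL2, the activating partner of MuvB (-1.24 ± 0.14, edgeR adjusted p = 0.000617). LIN37, a MuvB subunit, had 0.71 ± 0.24 (edgeR adjusted p = 0.056), the highest log2 fold change of that list.

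Of 13 genes that hold cells before mitosis, 5 rose and 1 fell at 240 µg/ml, where 5.16% of all tested genes were called higher, and 5 rose and 4 fell at 480 µg/ml, where 13.9% were called higher and 13.9% lower. CDKN1A, the p21 gene, had 189 and 158 CPM in the untreated libraries, 308 and 304 CPM at 24 µg/ml, 720 and 694 CPM at 240 µg/ml and 763 and 1149 CPM at 480 µg/ml. Its log2 fold change against untreated cells was 0.82 ± 0.18 at 24 µg/ml, which was not called (edgeR adjusted p = 0.67), 2.03 ± 0.19 at 240 µg/ml (edgeR adjusted p = 0.0013) and 2.46 ± 0.19 at 480 µg/ml (edgeR adjusted p = 0.000137). Any link between CDKN1A and the levels of the 54 genes was not tested. GADD45A, a damage-induced inhibitor of CDK1, rose at 480 µg/ml (1.01 ± 0.14, edgeR adjusted p = 0.00145). The members that fell at 480 µg/ml were the checkpoint kinase genes CHEK1 (-1.20 ± 0.16, edgeR adjusted p = 0.00119) and CHEK2, and the CDK1-inhibiting kinase genes WEE1 (-0.98 ± 0.17, edgeR adjusted p = 0.00322) and PKMYT1. RNA levels say nothing of the activity of these proteins.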

How the data were processed

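RNA was sequenced from 8 libraries of H7-derived cells, 2 in each of 4 dose groups, with a stranded mRNA kit, per the labels' protocols. The submitters' processing notes name the build GRCh38 (hg38) and the tools Trimmomatic, HISAT2, Bowtie2 and StringTie; versions, annotation and the strand counted are not given in the sources used here. The deposited counts are whole reads per gene symbol with no normalization, and the deposited TPM values are scaled by length to a common total. FPKM values, which only rescale TPM, were not used.

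Counts were tested with edgeR 4.0.16 in R 4.3.3: TMM factors, filterByExpr (at least 10 counts, 15 in total), a quasi-likelihood fit of group over all 8 libraries, and Benjamini-Hochberg adjustment over 18303 genes with a threshold of 0.05. The biological coefficient of variation was 0.150, on 4 residual and 4.98 prior degrees of freedom. An SE is the size of a log2 fold change over the square root of its F statistic. There were 5 comparisons: each dose against untreated cells, 240 against 24 µg/ml and 480 against 240 µg/ml. The method was run on simulated counts with the same spread in every gene and library and no effect of length. That run cannot show how the method handles the difference between the 480 µg/ml libraries. Alternatives were DESeq2 1.42.0, RLE factors, no filter, a filter of 50 counts in at least 2 libraries, the 2 groups alone, a replicate block, limma 3.58.1 on log2(TPM + 1), and leaving out each library. Centring of 10 length classes and removal of ribosomal RNA, mitochondrially encoded and AFP counts were added after the data were seen.

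The genes, lists, markers and tests were chosen with earlier results of these data known, so no p was adjusted over a list. Genes with values in every library were, in each function, the one with the highest mean TPM and those with the lowest and highest log2 fold change at 480 µg/ml, plus MKI67, CDK1, CCNB1, PLK1, TOP2A, BUB1B, NDC80, ANLN, FOXM1, CDC20, AURKA and BIRC5. From the other lists, apart from the kinesin and replication genes, the gene with the smallest p at 480 µg/ml in each direction is named. No inner kinetochore gene was called higher at that dose, and none with a positive log2 fold change is named. CENPE, CENPA, NUF2, SPC25, ESPL1, SGO2, MYBL2, GADD45A, WEE1, CHEK2, PKMYT1 and the single marker genes were added after their values were seen. Promoter sequences are RefSeq's, and a gene holds a motif if the window of any of its starts does. Transcript lengths and overlaps come from GENCODE v29.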

Additional observations from a re-analysis of the deposited data

How the results depend on the processing

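No called log2 fold change turned in direction under any alternative. Among values not called, 3 of the 54 at 480 against 240 µg/ml turned above 0 without 480 µg/ml replicate 2 (CENPE 0.18, KNL1 0.12, SGO2 0.06), and values near 0 at 24 µg/ml, and SPC24 at 240 µg/ml, against untreated cells took either sign. At 24 µg/ml against untreated cells 0 of the 54 genes were called under every alternative, and leaving out a library gave 0 to 0. At 480 µg/ml against untreated cells 51 to 54 were called lower under every alternative, including each library left out. The 41 genes lower at 240 µg/ml against untreated cells became 49 with DESeq2, 41 with RLE factors, 50 with no filter on low counts, 45 with the stricter filter, 53 from the 2 groups alone, 32 with limma on log2(TPM + 1) and 1 to 52 with a library left out. The 36 genes lower at 240 against 24 µg/ml became 45, 37, 47, 40, 51, 27 and 0 to 52 in the same order. The 7 genes lower at 480 against 240 µg/ml became 29, 7, 28, 7, 0, 0 and 0 to 46, and 15 with length classes centred. Without ribosomal RNA, mitochondrially encoded and AFP counts these 3 counts were 41, 36 and 7. The counts over all genes moved too. At 240 µg/ml against untreated cells 947 of all genes were called lower in the main fit. From DESeq2 to limma, in the order above, they numbered 1257, 964, 1490, 1028, 2739 and 901. At 240 against 24 µg/ml they numbered 638, then 1120, 649, 1326, 693, 2260 and 556. At 480 against 240 µg/ml they numbered 42, then 284, 42, 380, 41, 0 and 0. The cause of these changes was not tested, though fits without a library of the compared groups leave 1 sample in a group, which is assumed to vary like the others. The labels do not say that a replicate number marks a shared culture, and deviations of same-numbered libraries had correlations of -0.0797 to 0.0449 between groups. With the replicate number as a block, 36, 26 and 0 genes were called lower at 240 µg/ml against untreated cells, at 240 against 24 µg/ml and at 480 against 240 µg/ml, and 53 at 480 µg/ml against untreated cells. Among the members, depth limits SPC25, CENPA and SPC24 most, with at least 87, 104 and 115 counts in a library.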
